A study of Mus musculus with 17 samples.

Results

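The collagen chains were the 44 genes whose symbol reads Col, a number, a and a second number, out of 22180 genes measured on Affymetrix Mouse Gene 2.0 ST arrays. A gene was represented by its probe set (the group of array probes summarised into 1 value) with the highest mean over all 17 arrays, taken only from probe sets with 1 gene symbol. By molecular form, 11 of the 44 chains were fibrillar, 6 were basement membrane chains, and 27 belonged to other forms. The tissue was periprostatic fat, a fat pad that lies around the prostate, and it came from male C57BL/6J animals, each hybridised to 1 array. All mice went onto a purified diet at 6 weeks of age and ate it ad libitum for 12 weeks. The 6 LFD mice ate a low fat diet with 10 kcal% fat and the 6 HFD mice a high fat diet with 60 kcal% fat, both ad libitum for 7 further weeks. The third group (HFD_CR, 5 mice) had the same 12 weeks of ad libitum high fat feeding and then stayed on that diet for 7 weeks under 30% calorie restriction, at 70% of the amount the HFD mice ate. All animals were killed at 25 weeks of age. HFD against LFD therefore compares diets at free intake, HFD_CR against HFD compares intakes of 1 diet, and HFD_CR against LFD compares restricted high fat feeding with the low fat diet.

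Collagens are extracellular proteins in which chains wind around each other as a helix, so the amount of a collagen depends on the chains that can pair. Fibrillar chains (types I, III and V in most soft tissue) build the tension-bearing fibres, type IV chains build the sheet under endothelium and around each adipocyte, type VI chains form beaded filaments beside the cells, and fibril-associated chains coat the fibres. In fat, the collagen network encloses every adipocyte and is made mainly by fibroblasts and progenitors, with type IV also made by adipocytes, endothelium and mural cells.

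RefSeq promoter windows on GRCm38.p6, each running from 250 bases before to 50 bases after an annotated start, were present for 35 of the 44 genes, in 38 windows, and for 12 of the 16 genes that were higher in HFD. The upstream 120 bases are printed for 4 genes that were higher in HFD and then for 2 that were not called, to set the base composition of chains that moved beside chains that did not. Only stretches with no annotated gene over them were considered, and the choice among these was made by hand after the sequences had been seen. Capitals mark matches on either strand to the TATA box, CCAAT box, GC box or AP-1 motif, whose letters are given after the sequences.
Col1a2, chr6:4505498-4505617, plus strand: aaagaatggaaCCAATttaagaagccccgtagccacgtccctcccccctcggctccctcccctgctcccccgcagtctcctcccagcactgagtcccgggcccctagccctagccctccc
Col3a1, chr1:45311418-45311537, plus strand: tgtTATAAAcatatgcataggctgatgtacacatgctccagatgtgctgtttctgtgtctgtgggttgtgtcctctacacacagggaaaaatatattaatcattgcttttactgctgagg
Col6a1, chr10:76726045-76726164, minus strand: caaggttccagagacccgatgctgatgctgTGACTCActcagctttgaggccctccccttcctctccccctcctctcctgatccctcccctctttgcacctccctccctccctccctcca
Col8a1, chr16:57754738-57754857, minus strand: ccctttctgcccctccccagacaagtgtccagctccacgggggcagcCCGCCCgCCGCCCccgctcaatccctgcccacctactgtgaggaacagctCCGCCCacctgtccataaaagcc
Col9a2, chr4:121039446-121039565, plus strand: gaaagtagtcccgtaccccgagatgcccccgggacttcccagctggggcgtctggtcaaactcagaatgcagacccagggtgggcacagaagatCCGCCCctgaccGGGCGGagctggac
Col24a1, chr3:145292352-145292471, plus strand: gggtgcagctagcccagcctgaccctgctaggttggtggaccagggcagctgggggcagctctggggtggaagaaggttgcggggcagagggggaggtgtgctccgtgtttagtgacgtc

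In the whole windows, the GC box GGGCGG was found for 22 of the 35 collagen genes (62.9%), against 35.7% of all 32851 windows in the table. A collagen gene counted if any of its windows held the motif, whereas the share of all was per window. The shares are therefore not counted alike, and genes with several windows count more easily. The CCAAT box was found for 13 (37.1%, against 37.4%), the TATA box TATAAA for 5 (14.3%, against 13.6%) and the AP-1 motif TGANTCA for 1, Col6a1 (2.86%, against 7.81%). In all, 9 motifs were searched on both strands, none of which contains another. The other 5 were the Smad element CAGACA, found for 9 genes (25.7%, against 21%), the TEAD element CATTCC for 5 (14.3%, against 14.7%), and the Smad palindrome, the NF-kB site and ATTGCAC, each found for 0 genes (against 0.213%, 0.155% and 1.59%). Split by call, GGGCGG was present for 9 of the 12 genes called higher in HFD and for 13 of the 23 that were not, CCAAT for 6 and 7, CAGACA for 5 and 4, CATTCC for 3 and 2, TATAAA for 1 and 4, and TGANTCA for 1 and 0. No test was made of these splits. These are counts of letters, and the motifs put in capitals were chosen after the counts had been seen.

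The signals are log2 values, and medians of the arrays lay between 7.03 and 7.15. Adipocyte markers averaged 12.6 to 12.9 on every array, so the tissue was fat by its markers. Some arrays also carried other tissue. Skeletal muscle markers averaged 10.0 in LFD mouse 2, 8.86 in LFD mouse 3 and 8.77 in HFD_CR mouse 2. They averaged 7.77 in HFD mouse 6 and 7.63 in LFD mouse 5, and 6.66 to 6.84 on the other arrays. Gland epithelium markers averaged 10.6 in LFD mouse 3 and 8.76 in HFD mouse 3, and 6.89 or less elsewhere. Thermogenic adipocyte markers averaged 11.0 in LFD mouse 3 and 10.3 in LFD mouse 6, and 8.97 or less elsewhere. Male germ cell markers averaged 10.4 in HFD_CR mouse 1 and 8.79 or less elsewhere. Their part in the collagen values was not tested. Counts of collagen genes called are given below also without the 4 arrays with the most muscle or gland signal (LFD mice 2 and 3, HFD mouse 3 and HFD_CR mouse 2). HFD mouse 6 and LFD mouse 5, with weaker muscle signal, were kept there. In bulk tissue, fewer cells of a type and less RNA per cell cannot be told apart.

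Collagen transcripts were higher in the fat of HFD mice than in LFD mice for 16 of the 44 chains, and lower for none. The 16 were the type I, III and V chains Col1a1, Col1a2, Col3a1, Col5a1 and Col5a2, the type IV chains Col4a1, Col4a2 and Col4a5, the type VI chains Col6a1, Col6a2 and Col6a3, and Col8a1, Col12a1, Col14a1, Col16a1 and Col18a1. Differences ran from 0.23 for Col4a1 to 1.60 for Col12a1 on the log2 scale, that is from 1.17-fold to 3.03-fold. A call here is an adjusted p under 0.05 in limma, a linear model fitted to all 22180 genes, after Benjamini-Hochberg adjustment over all of them. By that rule 16.5% of all genes were higher and 11.3% were lower in HFD, against 36.4% and 0% of the collagen chains. At an unadjusted p under 0.05, 17 chains were higher and 0 were lower. How many of all genes passed that unadjusted threshold was not counted, here or in the other comparisons. In 11 chains every HFD mouse lay above every LFD mouse, as did 9.05% of all genes, and in 0 every HFD mouse lay below, as did 5.21%. The count of chains called higher was 15 without the 4 arrays.

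Counts are given by class, and a difference between classes was not tested. Higher in HFD were 5 of 11 fibrillar chains, 3 of 6 basement membrane chains and 8 of 27 others. The median difference was 0.25 for the fibrillar chains, 0.10 for the basement membrane chains and 0.08 for the others, beside -0.0032 for all genes. Without LFD mouse 3 these medians were 0.13, 0.07 and 0.03, and without the 4 arrays they were 0.11, 0.09 and 0.03. Among the others, 3 of 6 type VI chains, 3 of 9 fibril-associated chains, 1 of 3 short-chain network chains and 1 of 2 multiplexins were higher, with 0 of 4 transmembrane collagens and 0 of 3 in the remaining group (0 of these 7 also at an unadjusted p under 0.05).

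Most of the called chains had a signal above that of the median gene. Of the 24 chains whose mean was above that of the median gene, 15 were higher in HFD, beside 27.4% of all genes at that level. Of the 20 at or below it, 1 was (Col16a1), beside 5.59% of such genes. In all, 15 chains lay under their array's median on at least 9 of 17 arrays, 11 of them on all 17, so a change in them would be poorly resolved. The dim set included the cartilage chains Col9a1, Col9a3, Col10a1, Col11a1 and Col11a2 and the epidermal chain Col17a1.

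**Figure D1:**
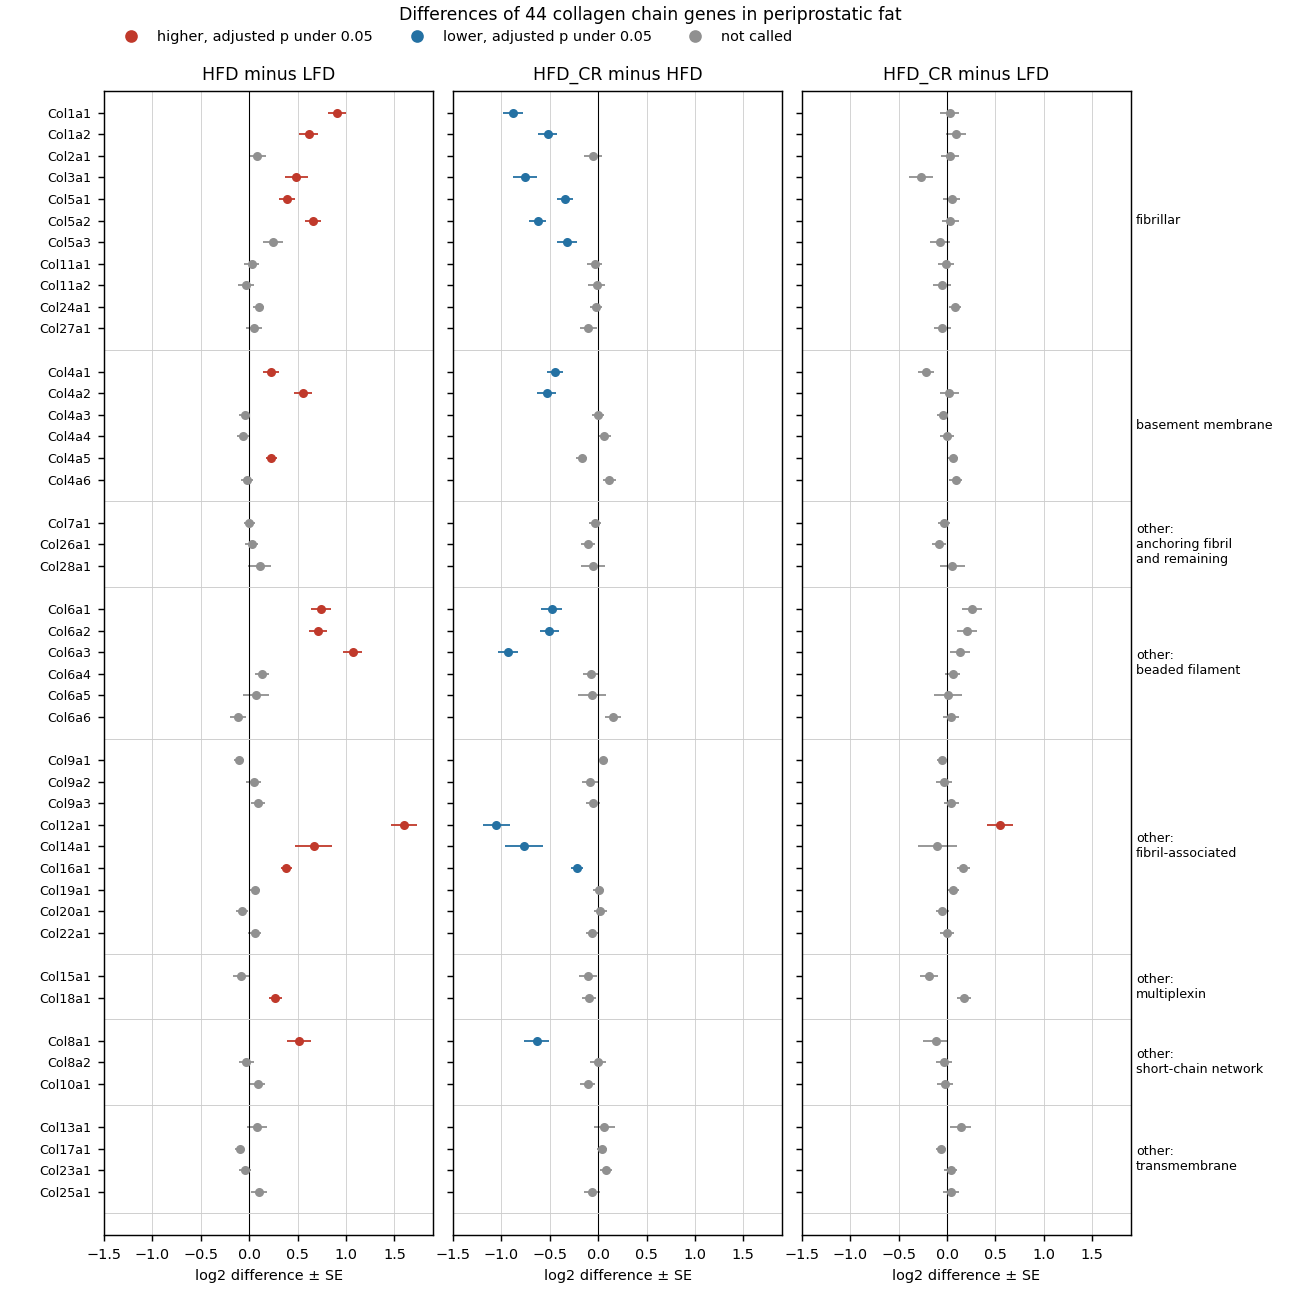
Log2 differences (x axes) ± SE of all 44 collagen chain genes (y axis, grouped by class) in the 3 comparisons, red for called higher, blue for called lower and grey for not called. The 16 red points of HFD minus LFD have 14 counterparts in blue in HFD_CR minus HFD, while HFD_CR minus LFD holds 1 called gene, Col12a1.

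Calorie restriction on the high fat diet gave the opposite picture. Of the 44 chains, 15 were lower in HFD_CR than in HFD (34.1%, beside 11.3% of all genes), and 0 were higher (beside 7.69% of all genes), also at an unadjusted p under 0.05. In 14 chains every HFD_CR mouse lay under every HFD mouse, as did 8.26% of all genes, and in 0 every HFD_CR mouse lay above, as did 5.42%. Of the 16 chains higher in HFD, 14 were among these 15. The exceptions were Col4a5 and Col18a1, and Col5a3 was lower in HFD_CR without having been called higher in HFD. Both comparisons use the HFD mice, so their values are given side by side below and neither supports the other. By class, 6 of 11 fibrillar chains were lower (median difference -0.32), 2 of 6 basement membrane chains (-0.09) and 7 of 27 others (-0.06), beside -0.0024 for all genes. Without the 4 arrays, 16 chains were lower.

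Against LFD, the restricted mice had 1 chain called, Col12a1, which was higher (2.27% of the chains, beside 5.8% of all genes). None was lower, beside 3.28% of all genes. At an unadjusted p under 0.05, 4 chains were higher (Col6a1, Col12a1, Col16a1, Col18a1) and 2 were lower (Col3a1, Col4a1). No share of all genes at that threshold stands beside these counts. No chain had groups that did not overlap, while 4.24% of all genes lay wholly above and 2.43% wholly below. Median differences of the classes were 0.03 for fibrillar, 0.01 for basement membrane and 0.04 for other chains, and without LFD mouse 3 they were -0.05, -0.04 and -0.01. Of the 16 chains that were higher in HFD, 12 had an HFD_CR mean above the LFD mean and 4 (Col3a1, Col4a1, Col8a1 and Col14a1) had one below it. A missed threshold does not show equal levels, and the intervals of single genes below say how far apart the groups could be.

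Type I collagen is the main fibre-forming collagen, made of Col1a1 and Col1a2 chains. Col1a1 signals ran from 10.39 through a median of 10.56 to 10.80 in LFD and from 11.27 through 11.46 to 11.66 in HFD. The 5 HFD_CR mice had 10.93, 10.65, 10.49, 10.54 and 10.38. Each HFD mouse was above all mice of both other groups, which overlapped each other. Col1a1 was higher in HFD than LFD by 0.91 ± 0.09 (SE, adjusted p = 8.59e-07 by limma, 1.88-fold), and lower in HFD_CR than HFD by 0.88 ± 0.10 (difference -0.88, adjusted p = 1.19e-05). The HFD_CR and LFD means differed by 0.03 (95% interval -0.18 to 0.24).
Col1a2, the partner chain, ran from 9.89 through 10.11 to 10.35 in LFD and from 10.45 through 10.72 to 10.92 in HFD. The HFD_CR mice had 10.38, 10.29, 10.27, 10.12 and 9.91. HFD was again above every other mouse, with a smaller difference of 0.61 ± 0.10 (adjusted p = 7.93e-05 by limma) against LFD and of -0.52 ± 0.10 (adjusted p = 0.0011) for HFD_CR against HFD. A second, dimmer probe set of Col1a2 gave 0.74 ± 0.15 (adjusted p = 0.00119 by limma over all probe sets) and -0.67 ± 0.16 (adjusted p = 0.00667).

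Type III collagen, encoded by Col3a1 alone, is found beside type I in elastic and pliable tissue. Its signals ran from 10.79 through 10.91 to 11.25 in LFD and from 11.19 through 11.44 to 11.65 in HFD. The HFD_CR mice had 11.06, 10.86, 10.80, 10.37 and 10.32. LFD and HFD overlapped at their edges, whereas all 5 HFD_CR mice lay under all 6 HFD mice. The rise was 0.49 ± 0.12 (adjusted p = 0.00424 by limma) and the difference of HFD_CR from HFD was -0.75 ± 0.12 (adjusted p = 0.000283). HFD_CR differed from LFD by -0.27 (95% interval -0.53 to -0.01, adjusted p = 0.211 by limma).

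Type V chains sit in the core of type I fibrils and set their diameter. Col5a1 ran from 8.80 through 9.24 to 9.33 in LFD and from 9.48 through 9.54 to 9.66 in HFD, and the HFD_CR mice had 9.39, 9.24, 9.10, 9.28 and 9.07. HFD did not overlap with either other group. The differences were 0.39 ± 0.08 (adjusted p = 0.00111 by limma) for HFD against LFD and -0.34 ± 0.08 (adjusted p = 0.00703) for HFD_CR against HFD. Its 2 probe sets disagreed: the dimmer one gave 0.08 ± 0.09 (adjusted p = 0.633 by limma over all probe sets) and -0.06 ± 0.10 (adjusted p = 0.774). With the mean of both probe sets the fall was -0.20 (adjusted p = 0.0777 by limma over genes).
Col5a2 ran from 8.24 through 8.57 to 8.68 in LFD and from 9.0 through 9.20 to 9.39 in HFD, and the HFD_CR mice had 8.75, 8.54, 8.62, 8.44 and 8.49. HFD stood clear of both groups, by 0.66 ± 0.08 (adjusted p = 8.95e-06 by limma) over LFD and by -0.62 ± 0.09 (adjusted p = 6.82e-05) for HFD_CR against HFD.
Col5a3, a chain with a narrower distribution than the other type V chains, ran from 8.64 through 9.29 to 9.48 in LFD and from 9.38 through 9.46 to 9.55 in HFD, and the HFD_CR mice had 9.22, 9.27, 9.11, 9.08 and 9.0. The low LFD value was that of mouse 3. HFD against LFD gave 0.25 ± 0.10 (adjusted p = 0.0844 by limma), and its size and call changed when single LFD mice were left out. Without LFD mouse 3 it was 0.13 (adjusted p = 0.119 by limma), and without the 4 arrays with the most muscle or gland signal 0.11 (adjusted p = 0.298). It passed the threshold without LFD mouse 6 (0.30, adjusted p = 0.038 by limma) and when mice 3 and 6 of LFD were both left out (0.17, adjusted p = 0.0479). HFD_CR against HFD gave -0.32 ± 0.11 (adjusted p = 0.0441), a call lost without any 1 of HFD_CR mice 1, 3, 4 or 5, HFD mice 1, 2, 3, 4 or 6, or LFD mice 2 or 5 (adjusted p from 0.0506 to 0.112).

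The other 5 fibrillar chains were called in no comparison. They are Col2a1, Col11a1 and Col11a2, known from cartilage, and Col24a1 and Col27a1, 2 chains with shorter helices. In HFD against LFD their differences lay between -0.03 (Col11a2) and 0.10 (Col24a1). Of these, Col11a1 and Col24a1 were under the array median on all 17 arrays and Col11a2 on 9.

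Type IV collagen is the network of basement membranes. Its most widespread form is made of Col4a1 and Col4a2. Col4a1 ran from 9.66 through 9.97 to 10.20 in LFD and from 10.09 through 10.21 to 10.28 in HFD, and the HFD_CR mice had 9.94, 9.78, 9.58, 9.76 and 9.65. LFD and HFD overlapped, and HFD_CR lay under every HFD mouse. The rise of 0.23 ± 0.08 (adjusted p = 0.0427 by limma) was the smallest of the 16. It missed the threshold without any 1 of LFD mice 3, 4 or 5, HFD mice 1, 2, 3 or 6, or HFD_CR mice 2 or 4 (0.17 to 0.23, adjusted p from 0.0515 to 0.0951), and also without the 4 arrays (0.21, adjusted p = 0.0646). With quantile normalization applied again the rise was 0.18 (adjusted p = 0.124 by limma), and without LFD mice 3 and 6 it was 0.19 (adjusted p = 0.0791). The call was lost in 15 of 29 alternatives, stricter thresholds included. The difference of HFD_CR from HFD was -0.44 ± 0.08 (adjusted p = 0.000969 by limma). Against LFD it was -0.22 (95% interval -0.39 to -0.04, adjusted p = 0.126), which passed the threshold without LFD mouse 3 (-0.28, adjusted p = 0.0261).
Col4a2 ran from 9.22 through 9.77 to 9.87 in LFD and from 10.07 through 10.22 to 10.32 in HFD, and the HFD_CR mice had 9.87, 9.73, 9.63, 9.71 and 9.51. Unlike for Col4a1, HFD did not overlap with LFD. The differences were 0.56 ± 0.09 (adjusted p = 0.000169 by limma) for HFD against LFD and -0.53 ± 0.10 (adjusted p = 0.000747) for HFD_CR against HFD, and HFD_CR differed from LFD by 0.02 (95% interval -0.18 to 0.23).

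Col4a5 pairs with Col4a6 in smooth muscle basement membranes and with Col4a3 and Col4a4 in the kidney filter and a few other sites. Col4a5 ran from 7.35 through 7.47 to 7.60 in LFD and from 7.55 through 7.70 to 7.82 in HFD, and the HFD_CR mice had 7.69, 7.50, 7.45, 7.47 and 7.52. All 3 groups overlapped. The rise in HFD was 0.23 ± 0.06 (adjusted p = 0.00593 by limma). HFD_CR against HFD gave -0.17 ± 0.06 (adjusted p = 0.0573), which passed the threshold in 8 of 29 alternatives. It passed when HFD_CR mouse 1 (-0.21), HFD mouse 3 (-0.20) or LFD mouse 3 (-0.17) was left out (adjusted p = 0.0198, 0.0283 and 0.0464 by limma). It also passed without the 4 arrays (-0.20, adjusted p = 0.0457 by limma), with arrays centred on their medians (-0.19, adjusted p = 0.0284), with quantile normalization applied again, and under both treatments of dim values.
The remaining type IV chains were dim and were called in no comparison. Col4a3 was under the array median on 16 arrays, with signals of 6.81 to 7.10 in LFD, 6.76 to 7.04 in HFD and 6.78 to 6.92 in HFD_CR. Col4a4 was under it on all 17, with 6.62 to 7.07, 6.64 to 6.96 and 6.77 to 6.90. Col4a6 was under it on 9, with 6.95 to 7.19, 6.99 to 7.24 and 7.05 to 7.42. Their differences between HFD and LFD were -0.05, -0.06 and -0.02.

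Type VI collagen links the fibres to the cell surface and is abundant in fat. Its common form needs Col6a1, Col6a2 and Col6a3, and the last of these gives rise to the cleaved peptide endotrophin. Col6a1 ran from 10.31 through 10.75 to 10.95 in LFD and from 11.27 through 11.42 to 11.61 in HFD, and the HFD_CR mice had 11.16, 10.92, 10.98, 10.90 and 10.77. HFD lay above every other mouse. The rise was 0.74 ± 0.10 (adjusted p = 2.25e-05 by limma) and the difference of HFD_CR from HFD was -0.48 ± 0.11 (adjusted p = 0.00356). HFD_CR stood 0.26 above LFD (95% interval 0.03 to 0.48, adjusted p = 0.161 by limma). A second, dimmer probe set gave 0.56 ± 0.12 for HFD against LFD (adjusted p = 0.00277 by limma over all probe sets) and -0.31 ± 0.13 for HFD_CR against HFD (adjusted p = 0.129). The fall thus passed the threshold on the brighter probe set, adjusted over genes, and missed it on the dimmer, adjusted over all probe sets.
Col6a2 ran from 9.92 through 10.40 to 10.55 in LFD and from 10.89 through 11.05 to 11.21 in HFD, and the HFD_CR mice had 10.69, 10.65, 10.55, 10.50 and 10.31. It matched Col6a1 in having HFD clear of both groups. The differences were 0.71 ± 0.10 (adjusted p = 1.54e-05 by limma) and -0.50 ± 0.10 (adjusted p = 0.0014).
Col6a3 ran from 9.23 through 9.41 to 9.62 in LFD and from 10.35 through 10.47 to 10.66 in HFD, and the HFD_CR mice had 9.90, 9.70, 9.39, 9.48 and 9.31. The lowest HFD mouse stood well above the highest mouse of either other group. The rise of 1.07 ± 0.10 (2.10-fold, adjusted p = 2.33e-07 by limma) was the second in size among the chains, and HFD_CR differed from HFD by -0.94 ± 0.10 (adjusted p = 1.1e-05).

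Col6a5 and Col6a6 are alternative long chains that can take the place of Col6a3. Col6a5 was bright and did not follow it: signals ran from 9.78 through 10.22 to 10.57 in LFD and from 10.01 through 10.32 to 10.47 in HFD, and the HFD_CR mice had 10.47, 10.10, 10.59, 10.00 and 9.96. The groups overlapped almost wholly. HFD differed from LFD by 0.07 (95% interval -0.21 to 0.36, adjusted p = 0.747 by limma), an interval that lies under the 0.86 lower bound of Col6a3.
Col6a6 ran from 8.78 through 8.92 to 9.22 in LFD and from 8.75 through 8.83 to 8.94 in HFD, and the HFD_CR mice had 9.20, 8.91, 9.17, 8.79 and 8.88. HFD differed from LFD by -0.11 (95% interval -0.28 to 0.06). Col6a4 was under the array median on all 17 arrays and differed by 0.13 (adjusted p = 0.218 by limma).

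Col12a1 encodes a fibril-associated collagen of dense and loaded connective tissue. It had the largest difference of the 44 chains in HFD against LFD and in HFD_CR against HFD. Signals ran from 7.34 through 7.58 to 7.82 in LFD and from 8.72 through 9.28 to 9.43 in HFD, and the HFD_CR mice had 8.38, 8.21, 8.14, 8.08 and 7.79. HFD was clear of both groups, and the HFD_CR mice lay between, with only mouse 5 under the highest LFD mouse. The rise was 1.60 ± 0.13 (3.03-fold, adjusted p = 7.24e-08 by limma) and the difference of HFD_CR from HFD was -1.05 ± 0.14 (adjusted p = 3.88e-05). HFD_CR stayed 0.55 ± 0.14 above LFD (adjusted p = 0.0164 by limma), a call lost without HFD_CR mouse 1 (0.48, adjusted p = 0.0532).
Col14a1, a fibril-associated collagen that binds decorin-coated fibres, had the widest spread between mice of the same group in HFD (SD 0.38) and HFD_CR (SD 0.52). It ran from 9.33 through 9.49 to 9.63 in LFD and from 9.61 through 10.21 to 10.62 in HFD, and the HFD_CR mice had 9.38, 10.05, 9.70, 9.07 and 8.72. All groups overlapped. The differences were 0.67 ± 0.19 (adjusted p = 0.0129 by limma) and -0.77 ± 0.20 (adjusted p = 0.0104).
Col16a1, which joins fibres to other matrix, ran from 6.84 through 7.14 to 7.25 in LFD and from 7.42 through 7.49 to 7.59 in HFD, and the HFD_CR mice had 7.32, 7.26, 7.30, 7.35 and 7.18. HFD did not overlap with either group, although the signals were close to the array medians. It rose by 0.38 ± 0.06 (adjusted p = 8.15e-05 by limma). HFD_CR against HFD gave -0.21 ± 0.06 (adjusted p = 0.022), a call lost without HFD_CR mouse 5 (-0.19, adjusted p = 0.0688) or HFD mouse 1 (-0.19, adjusted p = 0.0502). The other 6 fibril-associated chains, 3 of them type IX chains known from cartilage, were called in no comparison.

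Col8a1 encodes a short-chain collagen of vessel walls and of the endothelial layer of the cornea. It ran from 7.57 through 8.03 to 8.25 in LFD and from 8.17 through 8.46 to 8.84 in HFD, and the HFD_CR mice had 7.90, 7.84, 7.96, 7.90 and 7.72. LFD overlapped with HFD, and HFD_CR lay under every HFD mouse. The differences were 0.51 ± 0.12 (adjusted p = 0.00376 by limma) and -0.63 ± 0.13 (adjusted p = 0.00177). Its partner Col8a2, under the array median on every array, differed by -0.03 between HFD and LFD (adjusted p = 0.838 by limma).

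Col15a1 and Col18a1 are multiplexins of the basement membrane zone, the latter the source of the fragment endostatin. Col18a1 ran from 8.52 through 8.84 to 8.99 in LFD and from 9.01 through 9.09 to 9.16 in HFD, and the HFD_CR mice had 9.11, 8.98, 8.93, 9.02 and 8.91. HFD lay just above every LFD mouse, and HFD_CR overlapped with both. It rose by 0.27 ± 0.07 (adjusted p = 0.00478 by limma), while HFD_CR against HFD gave -0.10 (95% interval -0.24 to 0.05, adjusted p = 0.416).
Col15a1 was bright in every group and ran from 9.98 through 10.47 to 10.56 in LFD and from 10.24 through 10.33 to 10.36 in HFD, and the HFD_CR mice had 10.32, 10.41, 10.20, 10.15 and 9.94. HFD differed from LFD by -0.08 (95% interval -0.27 to 0.10, adjusted p = 0.557 by limma). The lowest LFD value was mouse 3. Without that mouse, HFD_CR against LFD passed the threshold (-0.27, adjusted p = 0.0208 by limma), and without the 4 arrays Col15a1 was lower in HFD (-0.20, adjusted p = 0.0448) and in HFD_CR (-0.35, adjusted p = 0.00655) than in LFD.

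**Figure D2:**
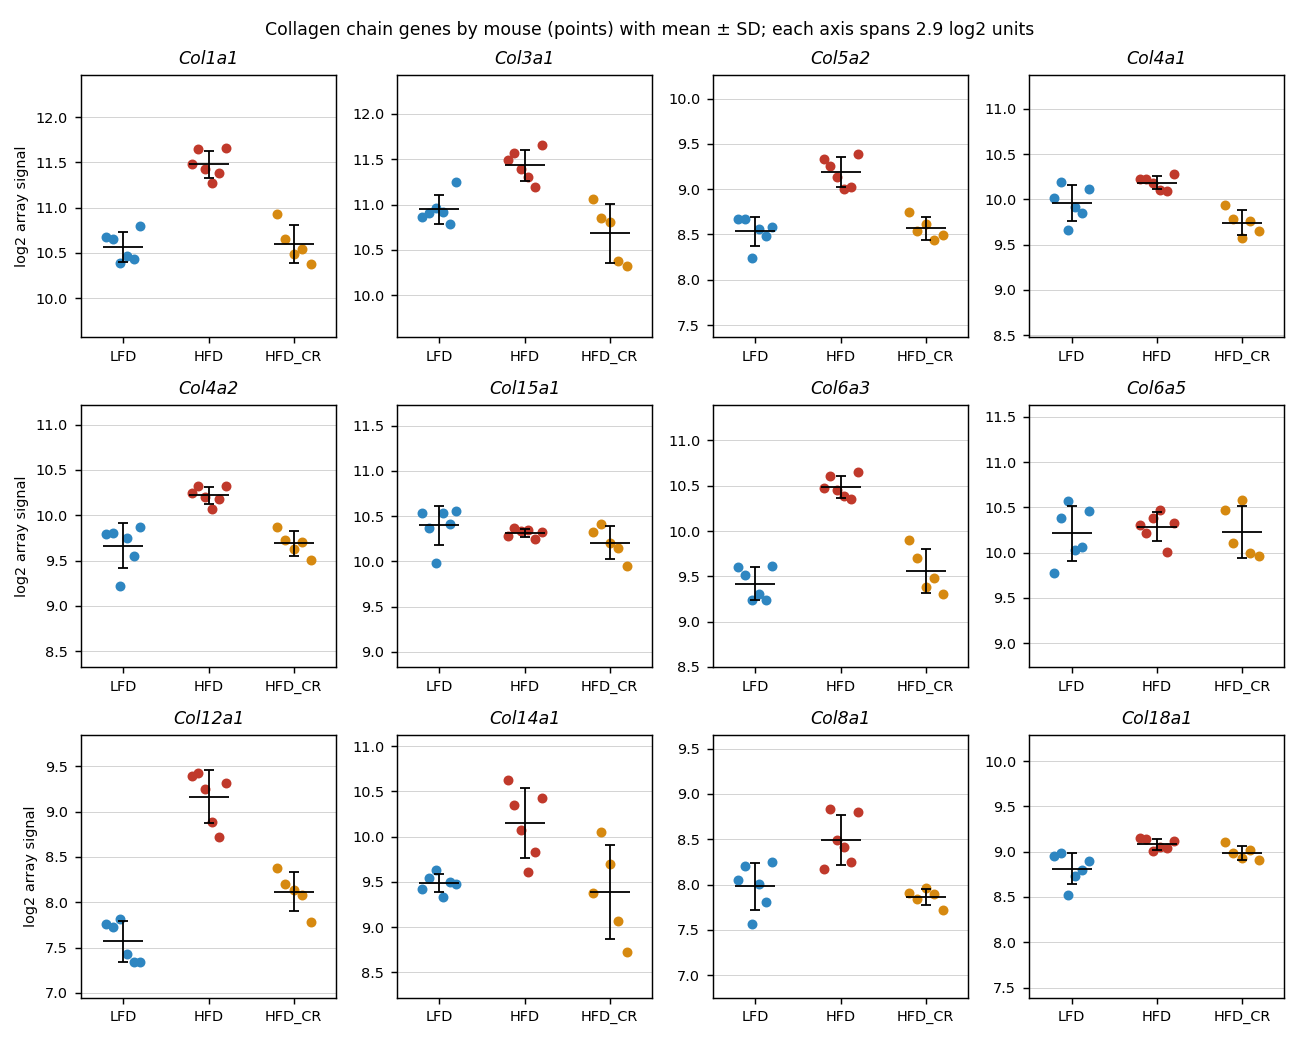
Log2 array signal (y axes, each spanning the same range) of 12 collagen genes in every LFD, HFD and HFD_CR mouse, as points, with the group mean ± SD in black. HFD points of Col1a1, Col5a2, Col4a2, Col6a3 and Col12a1 stand apart from both other groups, Col15a1 and Col6a5 points overlap, and Col14a1 is the most spread.

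Mice of a group kept some order across chains. LFD mouse 3 was the lowest of its group in 26 of the 44 chains, 12 of them among the 16 that were higher in HFD. HFD_CR mouse 1 was the highest of its group in 22 chains (13 of the 16), and HFD_CR mouse 5 was the lowest in 19 (13 of the 16). HFD mouse 5 was the highest of its group in 17 chains (0 of the 16). How often each mouse was lowest or highest over all genes was not counted. The mean signal over the 16 chains was 9.02 for LFD mouse 3, while the rest of the group lay at 9.17 to 9.37, with 9.72 to 10.0 in HFD mice, and 9.49 in HFD_CR mouse 1 against 9.10 in HFD_CR mouse 5. Of all arrays, LFD mouse 3 had the lowest array median (7.03) and HFD mouse 5 the highest (7.15). LFD mouse 3 is also the array with gland and thermogenic signal, and HFD_CR mouse 1 the one with germ cell signal. The part of array medians and of other tissue in these positions was not tested.

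The signals of chains that assemble into 1 molecule did not all move by the same factor. Each chain was read by 1 probe set here, and probe sets of the same gene can also differ. Other probe sets of Col1a2, Col5a1 and Col6a1 gave 0.74, 0.08 and 0.56 in HFD against LFD, each unlike the value of the probe set used. Ratios from these other probe sets alone were not tested. The log2 ratio of 2 chains within an array, compared between groups, shows unequal change and does not say which chain is more abundant. Over 12 partner pairs, an exact two-sided permutation test over mice, adjusted by Benjamini-Hochberg over the 12, called 5 pairs in HFD against LFD (6 at an unadjusted p under 0.05). The mouse labels can be split in 924 ways there, and in 462 in the comparisons with HFD_CR, so the smallest p either can give is 0.00216. In HFD_CR against HFD 5 pairs were called (6 unadjusted), and in HFD_CR against LFD 0 (1 unadjusted).

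The Col1a1 over Col1a2 ratio was 0.47 ± 0.13 (SD, n = 6) in LFD, 0.76 ± 0.10 (SD, n = 6) in HFD and 0.40 ± 0.12 (SD, n = 5) in HFD_CR. It rose by 0.30 in HFD (adjusted p = 0.00649, exact permutation) and differed by -0.36 in HFD_CR against HFD (adjusted p = 0.00866, exact permutation), with no overlap in either, so the Col1a1 signal moved more than that of its partner. The Col4a1 over Col4a2 ratio went the other way. It ran from 0.17 to 0.44 in LFD, from -0.09 to 0.04 in HFD and from -0.05 to 0.14 in HFD_CR, a change of -0.33 in HFD (adjusted p = 0.00649, exact permutation). Unlike the type I ratio, it changed by only 0.09 from HFD to HFD_CR (adjusted p = 0.0693, exact permutation) and still lay under every LFD mouse after restriction (-0.24, unadjusted p = 0.00433 and adjusted p = 0.0519, exact permutation). Without HFD_CR mouse 3 the change from HFD to HFD_CR passed the threshold (0.11, adjusted p = 0.0286, exact permutation).

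These type IV genes lie head to head in the RefSeq annotation of GRCm38.p6. Col4a1 (chr8:11198423-11312889) and Col4a2 (chr8:11312805-11449287) overlap by 85 bases at their starts, and Col4a3 and Col4a4 overlap by 114 bases on chromosome 1. Col4a5 and Col4a6 begin 1274 bases apart on chromosome X. The Col4a5 over Col4a6 ratio rose by 0.25 in HFD (adjusted p = 0.0312, exact permutation), with overlapping groups, and differed by -0.29 in HFD_CR against HFD (adjusted p = 0.0104, exact permutation). The first of these calls was lost without any 1 of HFD mice 4 or 6 or LFD mice 1, 2, 3, 5 or 6 (0.22 to 0.25, adjusted p from 0.0563 to 0.0623, exact permutation), and Col4a6 was near the array median.

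Col5a1 over Col5a2 was 0.64 ± 0.09 (SD, n = 6) in LFD, 0.37 ± 0.10 (SD, n = 6) in HFD and 0.65 ± 0.14 (SD, n = 5) in HFD_CR, a change of -0.26 and then 0.28 (adjusted p = 0.00649 and 0.00866, exact permutation). Col6a1 over Col6a3 was 1.27 ± 0.13 (SD, n = 6), 0.94 ± 0.08 (SD, n = 6) and 1.39 ± 0.15 (SD, n = 5), a change of -0.33 and then 0.45 (adjusted p = 0.00649 and 0.00866, exact permutation). Neither had overlap between HFD and the other groups, and in both the signal of the second chain of the pair moved more. Col6a1 over Col6a2 was 0.36 ± 0.07 (SD, n = 6), 0.39 ± 0.04 (SD, n = 6) and 0.41 ± 0.08 (SD, n = 5), with a change of 0.03 in HFD (adjusted p = 0.509, exact permutation), so these chains moved by factors that the test did not separate. Col8a1 over Col8a2 differed by -0.63 in HFD_CR against HFD (adjusted p = 0.0104, exact permutation), with Col8a2 dim throughout.

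**Figure D3:**
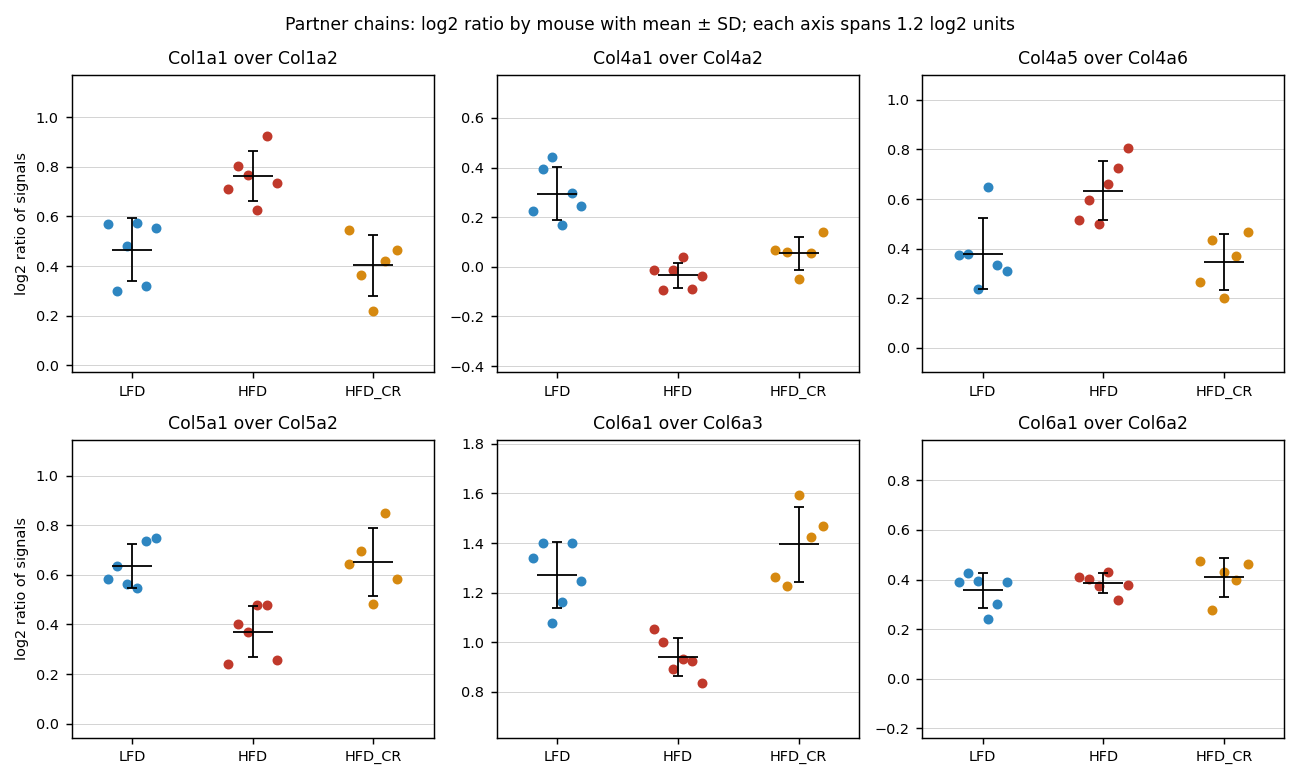
Log2 ratio of the signals of 2 partner chains (y axes, each spanning the same range) in every mouse, with the group mean ± SD in black. HFD stands above both groups for Col1a1 over Col1a2 and below them for Col5a1 over Col5a2 and Col6a1 over Col6a3, HFD and HFD_CR both lie below LFD for Col4a1 over Col4a2, and the groups overlap for Col6a1 over Col6a2.

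Genes that make, cross-link, bind or cut collagen were taken from 8 lists holding 99 genes, of which 92 were measured. Their counts stand beside those of all genes tested, of which 16.5% rose and 11.3% fell in HFD, 11.3% fell and 7.69% rose in HFD_CR against HFD, and 5.8% were higher and 3.28% lower when HFD_CR was set against LFD. Of 20 genes of collagen modification and folding, 12 rose (60%, against 16.5%) and 1 fell in HFD (median difference 0.25), and 9 fell (45%, against 11.3%) and 1 rose (5%, against 7.69%) in HFD_CR against HFD (median -0.16). Against LFD, 3 were higher and 2 lower in HFD_CR (15% and 10%, against 5.8% and 3.28%). Plod2, the lysyl hydroxylase of the telopeptides, ran from 7.48 through 7.70 to 8.29 in LFD and from 8.31 through 8.75 to 8.89 in HFD, and rose by 0.93 ± 0.13 (adjusted p = 2.63e-05 by limma). Colgalt1, which adds galactose to hydroxylysine, rose by 0.68 ± 0.07 (adjusted p = 3.9e-07 by limma), and P3h1, a prolyl 3-hydroxylase, by 0.62 ± 0.10 (adjusted p = 8.91e-05). Serpinh1, the collagen chaperone of the endoplasmic reticulum, rose by 0.30 ± 0.08 (adjusted p = 0.0118 by limma) and then differed by -0.53 ± 0.09 in HFD_CR against HFD (adjusted p = 0.000332). Tmem38b, an ion channel of the endoplasmic reticulum, differed by -0.61 ± 0.08 in that comparison (adjusted p = 3.12e-05 by limma) and was also lower in HFD_CR than in LFD (-0.33 ± 0.08, adjusted p = 0.0108). P3h4, a partner of the lysyl hydroxylases, was higher in HFD_CR than in HFD (0.28 ± 0.09, adjusted p = 0.0271 by limma) and than in LFD (0.42 ± 0.09, adjusted p = 0.00496).

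Outside the cell, 3 of 7 genes of procollagen processing rose in HFD (42.9%, against 16.5% of all genes) and 0 fell, and 2 fell (28.6%, against 11.3%) and 0 rose in HFD_CR against HFD. In a list of 7 these are few genes, and 1 was higher and 0 lower when HFD_CR was set against LFD. Pcolce, the enhancer of the C-proteinase, rose by 0.79 ± 0.09 (adjusted p = 2.06e-06 by limma) and differed by -0.57 ± 0.09 under restriction (adjusted p = 0.000285). Its relative Pcolce2 rose by 0.64 ± 0.09 (adjusted p = 1.44e-05 by limma) and remained above every LFD mouse in HFD_CR (0.43 ± 0.09, adjusted p = 0.0052). Of 6 cross-linking genes, 5 rose (83.3%, against 16.5%) and 0 fell in HFD, 2 fell (33.3%, against 11.3%) and 1 rose (16.7%, against 7.69%) in HFD_CR against HFD, and 2 were higher and 0 lower when HFD_CR was set against LFD. Lox, which oxidises lysines so that fibres cross-link, ran from 10.19 through 10.66 to 10.79 in LFD, from 11.26 through 11.40 to 11.58 in HFD and from 10.94 through 11.17 to 11.25 in HFD_CR. The groups of Lox did not overlap in any comparison. It rose by 0.85 ± 0.09 (adjusted p = 1.62e-06 by limma), differed by -0.31 ± 0.10 in HFD_CR against HFD (adjusted p = 0.0294), and was 0.53 ± 0.10 above LFD in HFD_CR (adjusted p = 0.00185). Pxdn, which cross-links type IV collagen, was not called in HFD against LFD (-0.14 ± 0.06, adjusted p = 0.066 by limma) and was higher in HFD_CR than in HFD (0.25 ± 0.06, adjusted p = 0.00576).

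Partners on the fibre surface included 7 of 12 genes that rose (58.3%, against 16.5% of all genes) and 0 that fell in HFD (median 0.31). In HFD_CR against HFD 5 fell (41.7%, against 11.3%) and 0 rose, and 6 were higher (50%, against 5.8%) and 0 lower when HFD_CR was set against LFD. Lum, the small proteoglycan lumican, ran from 8.85 through 9.15 to 9.34 in LFD and from 10.82 through 11.08 to 11.43 in HFD, and rose by 1.99 ± 0.12 (adjusted p = 5.52e-09 by limma). It was lower in HFD_CR than in HFD (-1.31 ± 0.13, adjusted p = 6.47e-06) and still above LFD (0.68 ± 0.13, adjusted p = 0.00228). Thbs2, a thrombospondin that affects fibril shape, rose by 1.65 ± 0.13 (adjusted p = 3.42e-08 by limma) and was not called between HFD_CR and HFD (-0.29 ± 0.13, adjusted p = 0.14). Basement membrane partners were mixed, with 6 of 14 genes rising and 4 falling in HFD (42.9% and 28.6%, against 16.5% and 11.3%; median -0.03). In HFD_CR against HFD 3 fell and 1 rose (21.4% and 7.14%, against 11.3% and 7.69%), the second of these near the share of all genes, and 3 were higher and 0 lower when HFD_CR was set against LFD. Lama2, the laminin chain of muscle and stroma, rose by 0.78 ± 0.07 (adjusted p = 3.44e-07 by limma), and Hspg2, perlecan, by 0.45 ± 0.09 (adjusted p = 0.000563).

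Of 10 collagen receptors, 6 rose (60%, against 16.5% of all genes) and 0 fell in HFD. In HFD_CR against HFD 3 fell (30%, against 11.3%) and 1 rose (10%, near the 7.69% of all genes), and 3 were higher and 0 lower when HFD_CR was set against LFD. Mrc2, the receptor that takes up cleaved collagen, ran from 7.94 through 8.16 to 8.64 in LFD, from 10.15 through 10.25 to 10.36 in HFD and from 9.20 through 9.57 to 10.02 in HFD_CR. None of its groups overlapped, and it rose by 2.01 ± 0.13 (adjusted p = 1.06e-08 by limma) and was 1.37 ± 0.14 above LFD in HFD_CR (adjusted p = 1.49e-05). Lair1, an inhibitory collagen receptor of leukocytes, rose by 1.70 ± 0.17 (adjusted p = 7.81e-07 by limma). The degradation list of 12 genes held cutting enzymes and also the inhibitors Timp1, Timp2 and Timp3, so its counts mix opposite functions. Of the 12, 9 rose and 2 fell in HFD (75% and 16.7%, against 16.5% and 11.3%). In HFD_CR against HFD 8 fell and 2 rose (66.7% and 16.7%, against 11.3% and 7.69%). Against LFD, 5 were higher and 1 lower in HFD_CR (41.7% and 8.33%, against 5.8% and 3.28%). Timp1, an inhibitor of metalloproteinases, rose by 2.87 ± 0.21 (adjusted p = 2.43e-08 by limma), and Ctsk, a collagen-cutting lysosomal protease, by 2.70 ± 0.17 (adjusted p = 5.52e-09). Mmp9, a gelatinase, went the opposite way, from 9.20 through 9.42 to 10.00 in LFD to 7.83 through 8.18 to 8.40 in HFD (-1.33 ± 0.12, adjusted p = 1.33e-07 by limma), and Timp3 fell by 0.31 in HFD and was 0.81 ± 0.09 higher in HFD_CR than in HFD (adjusted p = 1.1e-05).

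Of 11 profibrotic signals, 7 rose (63.6%, against 16.5% of all genes) and 0 fell in HFD, 4 fell (36.4%, against 11.3%) and 0 rose in HFD_CR against HFD, and 3 were higher and 0 lower when HFD_CR was set against LFD. Tgfb1, a growth factor known to raise collagen transcription, rose by 0.75 ± 0.08 (adjusted p = 7.1e-07 by limma) and differed by -0.60 ± 0.08 under restriction (adjusted p = 4.4e-05). Ccn1, a matricellular protein, rose by 1.01 ± 0.15 (adjusted p = 3.97e-05 by limma) and was not called between HFD_CR and HFD (0.10, 95% interval -0.22 to 0.43), so it remained 1.12 ± 0.16 above LFD (adjusted p = 0.000193). Its relative Ccn2 likewise stood 0.69 ± 0.13 above LFD in HFD_CR (adjusted p = 0.00284 by limma).

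**Figure D4:**
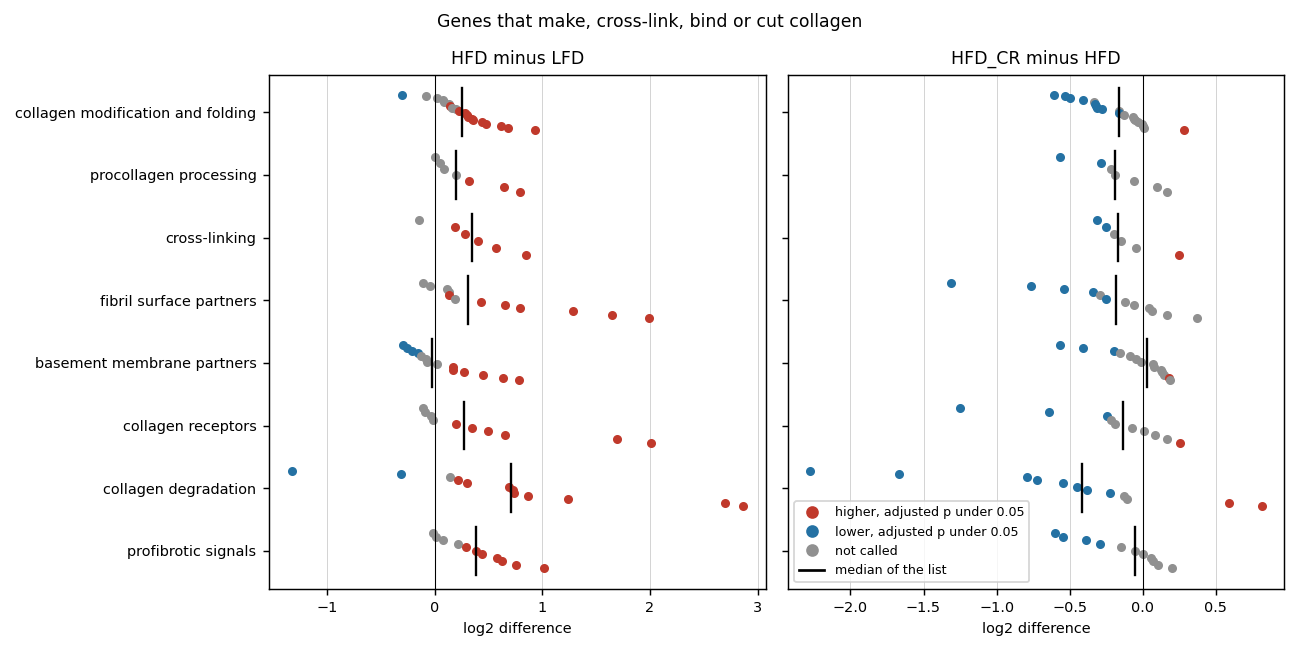
Log2 differences (x axes) of the genes of 8 collagen-related lists (y axis), 1 point a gene, in HFD minus LFD and HFD_CR minus HFD, red for called higher, blue for called lower and grey for not called, with the list median as a black line. Collagen degradation, a list that includes Timp inhibitors, has the widest range, from Mmp9 at -1.33 to Timp1 at 2.87. Basement membrane partners have both red and blue points in HFD minus LFD.

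Markers of some other cell types also differed in these comparisons, and those of others hardly did. All 6 macrophage markers were higher in HFD (100%, against 16.5% of all genes). All 6 were lower in HFD_CR than in HFD (100%, against 11.3%). Means over the list were 9.65 to 10.1 in LFD mice, 11.5 to 12.0 in HFD mice and 10.2 to 11.1 in HFD_CR mice. Of 8 fibroblast and progenitor markers, 4 were higher and 0 were lower in HFD (50% and 0%, against 16.5% and 11.3%). In HFD_CR against HFD 2 were lower and 0 higher (25% and 0%, against 11.3% and 7.69%). List means were 10.3 to 10.5 in LFD, 10.6 to 10.8 in HFD and 10.2 to 10.6 in HFD_CR mice. Pdgfra, the receptor that marks adipose progenitors, rose by 0.56 ± 0.10 (adjusted p = 0.000239 by limma) and was not called in HFD_CR against HFD (-0.06 ± 0.10, adjusted p = 0.758). Dpp4 and Pi16, markers of early progenitors, differed by 0.09 ± 0.11 (adjusted p = 0.607 by limma) and 0.06 ± 0.10 (adjusted p = 0.704) in HFD against LFD. Of 7 adipocyte markers, 1 was higher and 5 were lower in HFD (14.3% and 71.4%, against 16.5% and 11.3% of all genes). From HFD to HFD_CR 5 rose and 0 fell (71.4% and 0%, against 7.69% and 11.3%). Of 6 thermogenic adipocyte markers, all had a negative difference in each comparison. In HFD 2 were lower than in LFD (33.3%, against 11.3% of all genes, median -1.19). In HFD_CR 1 was lower than in HFD (16.7%, against 11.3%, median -0.40) and 4 were lower than in LFD (66.7%, against 3.28%, median -1.54). All 5 mesothelial markers had a positive difference in HFD_CR against HFD (median 0.45), of which 1 was called (20%, against 7.69% of all genes). Their differences in HFD against LFD were negative (median -0.30), and 0 were called. Of 7 endothelial markers, 0 were higher and 1 was lower in HFD (14.3%, near the 11.3% of all genes). Of 6 smooth muscle and pericyte markers, 1 was higher and 1 was lower in HFD (16.7% each, against 16.5% and 11.3%). In HFD_CR against HFD 0 markers of either list were called. The part of these cell types in the collagen differences was not tested.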

How the data were processed

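Each of the 17 arrays measured 1 mouse. The values are log2 expression values that the authors deposited. Per the submitters' processing notes the tools were RMA, limma and R 3.5.0, and which step used which version, and whether background was corrected, is not given in the sources used here. Of 33793 probe sets, 23521 had 1 gene symbol, 1814 had several and 8458 had none; the first gave 22180 genes, none renamed through its gene ID. No filter on dim genes was applied. Groups came from the sample titles. Using lmFit and eBayes of limma 3.58.1 under R 4.3.3, group means of all 22180 genes were fitted together (14 residual and 3.625 prior degrees of freedom), with Benjamini-Hochberg adjustment over all genes and a call at an adjusted p under 0.05. Log2 ratios of partner chains were compared by exact permutation over mice. Alternatives covered normalization, dim values, left-out arrays, thresholds and mouse number as a block. Figures used matplotlib 3.10.9. Both scripts that test were tested on simulated data. Precision is limited by how many arrays there are.

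The chains, classes, lists, pairs, named genes and the 4 arrays left out in an alternative were chosen with earlier results of these data known. Values by mouse are given for the 22 chains of a written rule and for Col16a1, added after its values were seen. Up to 3 called genes with the largest difference were eligible from each list and comparison, and Pdgfra, Dpp4 and Pi16 were named after their values were seen. Listed genes without a probe set of 1 symbol (7 of 99) were not analysed here.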

Additional observations from a re-analysis of the deposited data

Results flagged for a closer look

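In the 66 sets of a named chain and a group, 3 held a mouse set apart from its group, where chance flags about 1 in 20. Col4a6 in HFD mouse 1 was the highest of its group at 7.24, with the nearest mouse at 7.07. Col5a3 in LFD mouse 3 was the lowest at 8.64, with the nearest at 9.17. Col15a1 in LFD mouse 3 was the lowest at 9.98, with the nearest at 10.4. The latter mouse also carried gland, muscle and thermogenic signal, whose part was not tested.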

How the results depend on the processing

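No called result changed direction in any alternative, but the class medians of HFD_CR against LFD, all near 0 and untested, did. For fibrillar, basement membrane and other chains they were -0.05, -0.04 and -0.01 without LFD mouse 3 and -0.08, -0.05 and -0.01 without the 4 arrays. Without LFD mice 3 and 6 the fibrillar and other medians were below 0, without HFD_CR mouse 1 the fibrillar and basement membrane medians, and without LFD mouse 5 or with Col7a1, Col15a1 and Col18a1 added the basement membrane median. Without 1 array at a time, chains called higher in HFD than LFD numbered 15 to 17 and lower 0 to 0. In HFD_CR against HFD 13 to 16 were lower, and against LFD 0 to 1 were higher (0 without HFD_CR mouse 1) and 0 to 2 lower (2, Col4a1 and Col15a1, without LFD mouse 3). Called pairs numbered 4 to 6, 5 to 6 and 0 to 0. Without the 4 arrays with the most muscle or gland signal, Col15a1 was lower, giving 1 chain lower in HFD and 1 in HFD_CR than in LFD. At a 1.5-fold minimum 8 chains were higher in HFD, 7 were lower in HFD_CR than HFD and 0 differed from LFD, and at an adjusted p under 0.01 that last count was also 0. Shares of all genes were not counted under the alternatives, so their counts have no background beside them. Among genes above the median gene the class medians in HFD against LFD were 0.44 (fibrillar), 0.23 (basement membrane) and 0.27 (other), and that of the basement membrane chains in HFD_CR against HFD was -0.44, since the dim chains drop out. With dim values set to their array median the basement membrane median in HFD was 0.23. With Col7a1, Col15a1 and Col18a1 counted in that class it was 0.00078. Of the 16 chains higher in HFD, 7 kept their call in every alternative, stricter thresholds included, and of the 15 lower in HFD_CR, 6 did. The causes of these changes were not tested. Same-numbered mice correlated over 0.1 in 5 of 16 pairs (-0.108 to 0.409). The highest were mouse 3 of HFD and LFD (0.409), both with gland signal, and mouse 2 of HFD_CR and LFD (0.303), both with muscle signal. The rest were 0.183 or less. The part of that signal in the correlations was not tested. Differently numbered mice were not compared, so these values cannot settle whether the numbers pair the mice. The main fit did not pair them. With mouse number as a block 2 chains were higher in HFD_CR than LFD, Col6a1 (0.28, adjusted p = 0.0478 by limma) joining Col12a1, and Col5a3 was no longer lower in HFD_CR than HFD (-0.29, adjusted p = 0.069). Other alternatives (2 groups at a time, quantile normalization again, median centring, a variance trend, LFD mice 3 and 6 left out) kept the counts within 1.5 times. Single calls, such as that of Col4a1 in HFD against LFD, were lost in some of these. The labels give no scan date, so a batch could not be examined.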
